A study of Mus musculus with 4 samples.

Results

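Cajal-Retzius cells are early-born neurons of the marginal zone of the cortex and hippocampus, and 9 genes that mark or specify them were followed in the hippocampus of newborn mice at postnatal day 2. The genes were Reln, Trp73, Lhx1, Lhx5, Calb2, Ndnf, Ebf2, Ebf3 and Nhlh2. Every probe set that the platform annotation assigns to 1 of these symbols alone was taken, which gave 17 of the 45037 probe sets on the array, for 9 of 18193 named genes. All 17 carry an Entrez ID with the same symbol in RefSeq, and no member was on a probe set with several symbols. The tissue came from Zbtb20 knockout pups, on 2 arrays, and from littermates labelled wildtype and control, on 2 arrays. Zbtb20 encodes a zinc finger transcription factor of the BTB family, and the study sought its target genes in hippocampal development. The labels give no strain, no sex and no description of the knockout allele, and do not say whether an array held 1 pup or a pool, so the spread between arrays of a group may be partly technical.

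Cajal-Retzius cells populate the outer marginal zone of the hippocampus, where they line the hippocampal fissure, and most of those reaching the hippocampus arise from the cortical hem. They secrete reelin, a large extracellular glycoprotein that binds the receptors Vldlr and Lrp8 on neighbouring neurons and acts through phosphorylation of the adaptor Dab1 to place migrating neurons. Many of these cells die during the first postnatal weeks in mice, so postnatal day 2 falls before much of that loss. Reelin is later made by GABAergic interneurons, and Calb2 and Ndnf are also expressed by interneuron classes, so these genes do not mark Cajal-Retzius cells alone.

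The arrays stood on different scales by replicate number. The median signal was 129.9 on the knockout and 142.3 on the control array of replicate 1, and 75.8 and 73.8 on the knockout and control arrays of replicate 2. Rank correlation between arrays was 0.926 within replicate 1 and 0.986 within replicate 2, against 0.823 between the knockout arrays and 0.820 between the control arrays. Albumin, a liver transcript, had a signal of 15195 in knockout and 39309 in control tissue of replicate 1, against 45.2 and 42.2 in knockout and control tissue of replicate 2. The 8 measured liver genes had a median difference of log2 -1.87 in replicate 1 and 0.03 in replicate 2. Of the 9 Zbtb20 probe sets, 3 were lower on the knockout array in replicate 1, 2 in replicate 2 and 0 in both, so the targeted gene did not settle the genotype labels, and directions below follow the labels. Probe sets of 11 measured genes of hippocampal pyramidal and granule cells had a median percentile of 92.2 and 92.4 on the knockout arrays and 84.6 and 96.2 on the control arrays. Differences are therefore given within each replicate number, as the knockout minus the control array, on the log2 scale after a pseudocount of 32.56 was added to each signal. This understates the difference of dim probe sets. Each such value sets 1 array against 1 array and has no replicate check.

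Promoter sequence is shown for 3 members: Reln, whose product defines the cells, Trp73, which has alternative promoters, and Nhlh2. RefSeq (GRCm38.p6) promoter windows were found for 5 of the 9 members, and the 250 bases before each transcription start are printed 5′ to 3′ on the gene's strand. Capitals mark the E-box CANNTG, the palindromic core bound by basic helix-loop-helix factors, the class to which Nhlh2 belongs.
Reln, chr5:22344706-22344955, minus strand: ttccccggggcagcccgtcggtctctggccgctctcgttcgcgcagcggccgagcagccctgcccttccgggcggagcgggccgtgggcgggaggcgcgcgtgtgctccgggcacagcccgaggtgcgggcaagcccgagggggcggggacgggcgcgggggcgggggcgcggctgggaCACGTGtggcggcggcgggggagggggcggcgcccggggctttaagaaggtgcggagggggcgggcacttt
Trp73 upstream start, chr4:154139876-154140125, minus strand: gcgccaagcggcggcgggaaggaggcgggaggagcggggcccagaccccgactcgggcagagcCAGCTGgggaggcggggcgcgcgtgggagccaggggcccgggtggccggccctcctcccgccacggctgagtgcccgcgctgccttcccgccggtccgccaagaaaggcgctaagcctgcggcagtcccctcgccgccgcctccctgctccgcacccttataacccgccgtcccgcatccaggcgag
Trp73 internal start, chr4:154097174-154097423, minus strand: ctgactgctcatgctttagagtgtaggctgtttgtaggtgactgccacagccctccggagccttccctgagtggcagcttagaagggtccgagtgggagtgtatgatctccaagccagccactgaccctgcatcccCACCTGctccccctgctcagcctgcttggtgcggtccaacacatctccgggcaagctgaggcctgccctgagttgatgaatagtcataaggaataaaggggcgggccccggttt
Nhlh2, chr3:102009895-102010144, plus strand: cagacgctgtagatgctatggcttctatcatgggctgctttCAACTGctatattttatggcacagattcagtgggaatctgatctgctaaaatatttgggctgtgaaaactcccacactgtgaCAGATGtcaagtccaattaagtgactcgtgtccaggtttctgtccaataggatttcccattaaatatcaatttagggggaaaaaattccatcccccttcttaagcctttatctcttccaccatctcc
The Reln window held 1 E-box and was 80.0% G or C. Each Trp73 window held 1 E-box, with 77.2% G or C at the upstream start and 58.4% at the internal one. The Nhlh2 window held 2 E-boxes and was 42.0% G or C. The windows of Lhx1 and Ebf3, which are not printed, held 0 E-boxes each. An E-box occurred in 66.2% of 32851 promoter windows of the same length, searched on both strands, so its presence sets none of these apart. The palindrome TAATTA, a core bound by LIM homeodomain factors such as Lhx1 and present in 4.84% of windows, was found in 0 of the 6 windows of members. These matches describe the letters only.

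Of the Cajal-Retzius cell genes, 7 entered the test between knockout and control and 0 passed, while Lhx1 and Ebf2 were left out for low signal. Over the whole array 0 of 27022 tested probe sets passed (0%), so this result does not set the members apart. The probe sets of all members, tested or not, mostly lay on opposite sides of the control array in the 2 replicates. Of these 17, 13 had opposite signs (12 to 14 over 5 other scalings and pseudocounts), against 53.0% of all probe sets. Reln was below control in replicate 1 and above it in replicate 2, while Nhlh2, Calb2 and 2 of the 3 Ebf3 probe sets went the other way. On the deposited scale only Ndnf, through 1 of its 2 probe sets, was higher in the knockout array of both replicates, joined under quantile normalization by its other probe set and by 1 of Trp73. The widest gap relative to the other probe sets was that of Calb2 in replicate 2.

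Reln encodes reelin itself and had a strong signal at 1449465_at on all 4 arrays. This probe set read 8712 in knockout and 11709 in control tissue of replicate 1, and 1789 in knockout and 1360 in control tissue of replicate 2. The knockout array was thus the lower of its pair in replicate 1 and the higher in replicate 2, and the groups overlapped. The ratio of knockout to control was 0.744 and 1.32, or log2 -0.43 and 0.39. The percentile of this signal among all probe sets of its array was 98.6 and 98.5 in knockout and 99.1 and 97.5 in control tissue, so Reln stayed among the top few percent of signals in every sample. The difference between groups was -0.019 ± 1.92 in the fit as designed and -0.019 ± 0.22 with the replicate number as a block (log2, limma, SE, n = 2 per group).

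The second Reln probe set, 1458020_at, was dim and did not pass the filter on low signal. It read 36.5 in knockout and 76.7 in control tissue of replicate 1, and 88.3 in knockout and 79.7 in control tissue of replicate 2. Its directions, log2 -0.66 and 0.11, were those of 1449465_at in both replicates. In bulk tissue, fewer Cajal-Retzius cells and less of the transcript per cell cannot be told apart, for Reln or for any other member.

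**Figure D1:**
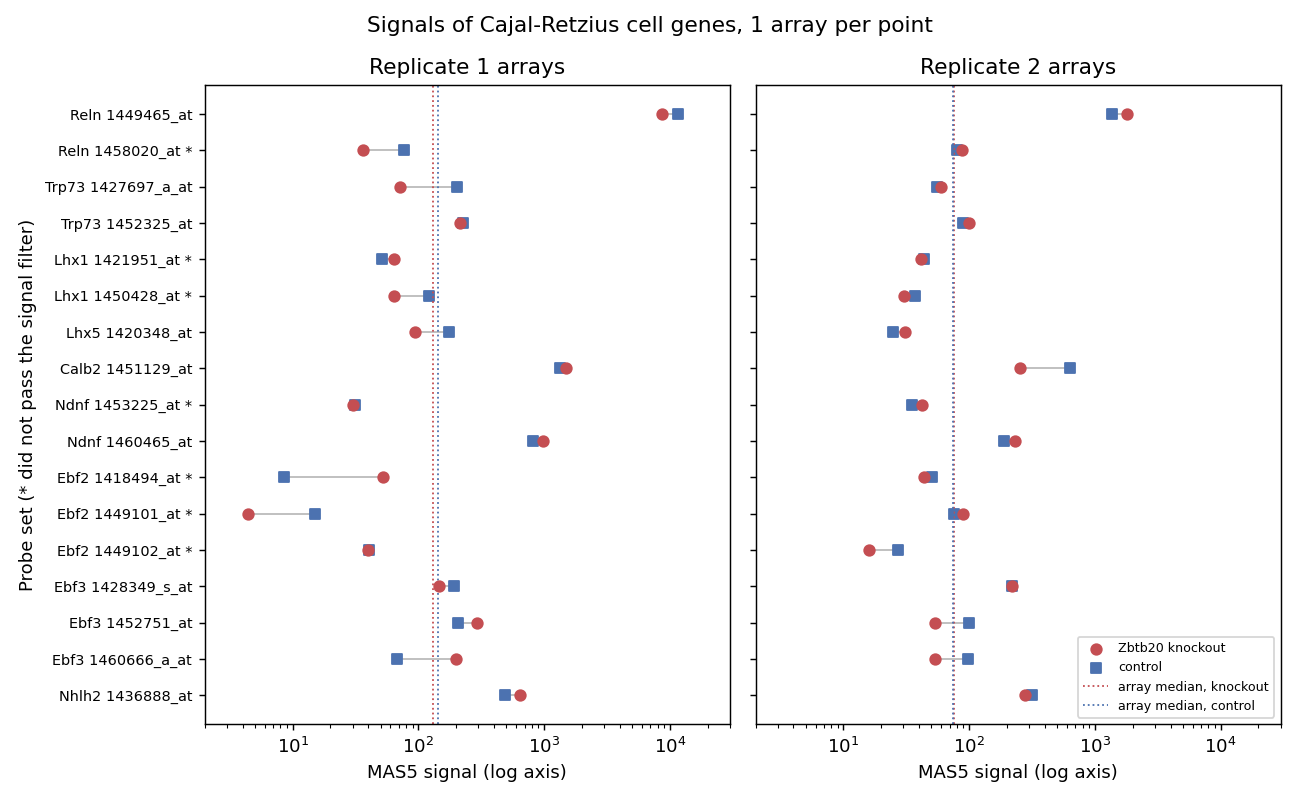
MAS5 signal on a log axis of all 17 probe sets of the 9 Cajal-Retzius cell genes, with the replicate 1 arrays on the left and the replicate 2 arrays on the right; circles are knockout and squares control arrays, and dotted lines the array medians. Reln at 1449465_at lies far above the medians on all 4 arrays, Calb2 is apart in replicate 2 (256 in knockout, 629 in control), and the probe sets of Lhx1 and Ebf2 lie near or below the medians.

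Among the transcription factors of these cells, Trp73 encodes p73, a member of the p53 family that Cajal-Retzius cells need to survive in mice. Its upstream start gives the TA form and the internal start, 42702 bases downstream in the annotation, gives the N-terminally shortened form. At 1427697_a_at Trp73 read 71.5 in knockout and 204 in control tissue of replicate 1, against 60.1 in knockout and 55.2 in control tissue of replicate 2. The replicate 1 control array stood alone as high, at a percentile of 57.1, while the knockout arrays were at 38.8 and 40.9 and the replicate 2 control array at 38.4. Trp73 passed the filter here through that 1 array. The differences were log2 -1.18 and 0.08, and the first came to -0.84 with quantile normalization. Nearly none of that gap appeared at the other Trp73 probe set, 1452325_at, which read 216 in knockout and 225 in control tissue of replicate 1 and 99.8 in knockout and 88.6 in control tissue of replicate 2. There the differences were log2 -0.05, which turned to 0.02 with quantile normalization, and 0.13. The sources used here do not say which of these starts, if either, a probe set favours.

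Lhx5 and Lhx1 encode LIM homeodomain factors expressed in the hem and in Cajal-Retzius cells. Lhx5 at 1420348_at read 93.2 in knockout and 177 in control tissue of replicate 1, and 30.9 in knockout and 24.8 in control tissue of replicate 2. The gap between the replicates exceeded that between the groups: its percentiles were 44.0 and 15.3 in knockout and 54.4 and 9.6 in control tissue. Lhx5 passed the filter through the replicate 1 arrays alone, and its differences were log2 -0.74 and 0.15.

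Both Lhx1 probe sets failed the filter. Lhx1 at 1450428_at read 64.1 in knockout and 122 in control tissue of replicate 1, against 30.3 in knockout and 36.8 in control tissue of replicate 2. It was lower on the knockout array both times, by log2 -0.68 and -0.14. At 1421951_at, Lhx1 read 64.1 in knockout and 51.6 in control tissue of replicate 1, and 41.8 in knockout and 43.5 in control tissue of replicate 2. Here the directions differed, at log2 0.20 and -0.03. The Lhx1 probe sets thus disagreed in replicate 1 at signals below the array median.

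Ebf3 and Ebf2 encode early B-cell factor transcription factors, a family expressed in Cajal-Retzius cells among other neurons. A pair of Ebf3 probe sets lay alike. Ebf3 at 1452751_at read 294 in knockout and 208 in control tissue of replicate 1, and 53.2 in knockout and 99.2 in control tissue of replicate 2. Ebf3 at 1460666_a_at read 198 in knockout and 67.3 in control tissue of replicate 1, and 53.5 in knockout and 97.9 in control tissue of replicate 2. Both were higher in knockout in replicate 1, by log2 0.44 and 1.21, and lower in replicate 2, by log2 -0.62 and -0.60. In replicate 2 the differences ranked at the 1.43 and 1.55 percentile among the 27022 probe sets that passed the filter. The knockout signals behind these ranks were dim, at percentiles 35.9 and 36.1 of their array and below its median of 75.8.

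The remaining Ebf3 probe set did not follow them. Ebf3 at 1428349_s_at, whose suffix marks probes shared between transcripts, read 147 in knockout and 191 in control tissue of replicate 1, and 219 in knockout and 220 in control tissue of replicate 2. Its differences were log2 -0.32 and -0.0049, and the second turned to 0.01 when all arrays were scaled to 1 trimmed mean. Probe sets of this gene were therefore on both sides of zero in replicate 1, and the sources used here do not say which transcripts each of them reads.

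Ebf2 did not pass the filter at any of its 3 probe sets. Ebf2 at 1418494_at read 52.0 in knockout and 8.6 in control tissue of replicate 1, and 44.1 in knockout and 50.6 in control tissue of replicate 2. At 1449101_at Ebf2 read 4.4 in knockout and 15.1 in control tissue of replicate 1, and 89.6 in knockout and 75.4 in control tissue of replicate 2. Both show wide ratios at signals that sat below the 40th percentile of the replicate 1 arrays (76.1 in knockout, 88.4 in control). Ebf2 at 1449102_at read 39.6 in knockout and 40.6 in control tissue of replicate 1, and 16.1 in knockout and 27.0 in control tissue of replicate 2. The differences of the 3 probe sets were log2 1.04, -0.37 and -0.02 in replicate 1, the last turning to 0.09 with quantile normalization, and -0.12, 0.18 and -0.29 in replicate 2.

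Nhlh2, a basic helix-loop-helix factor of developing neurons, was read by 1436888_at alone. It had 649 in knockout and 485 in control tissue of replicate 1, and 279 in knockout and 314 in control tissue of replicate 2. The differences, log2 0.40 and -0.15, were of opposite sign, and the group difference was 0.12 ± 1.38 as designed and 0.12 ± 0.20 with the replicate block (log2, limma, SE, n = 2 per group). Nhlh2 lay at percentiles 77.6 and 83.9 in knockout and 72.9 and 85.7 in control tissue, again further apart between replicates than between groups.

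**Figure D2:**
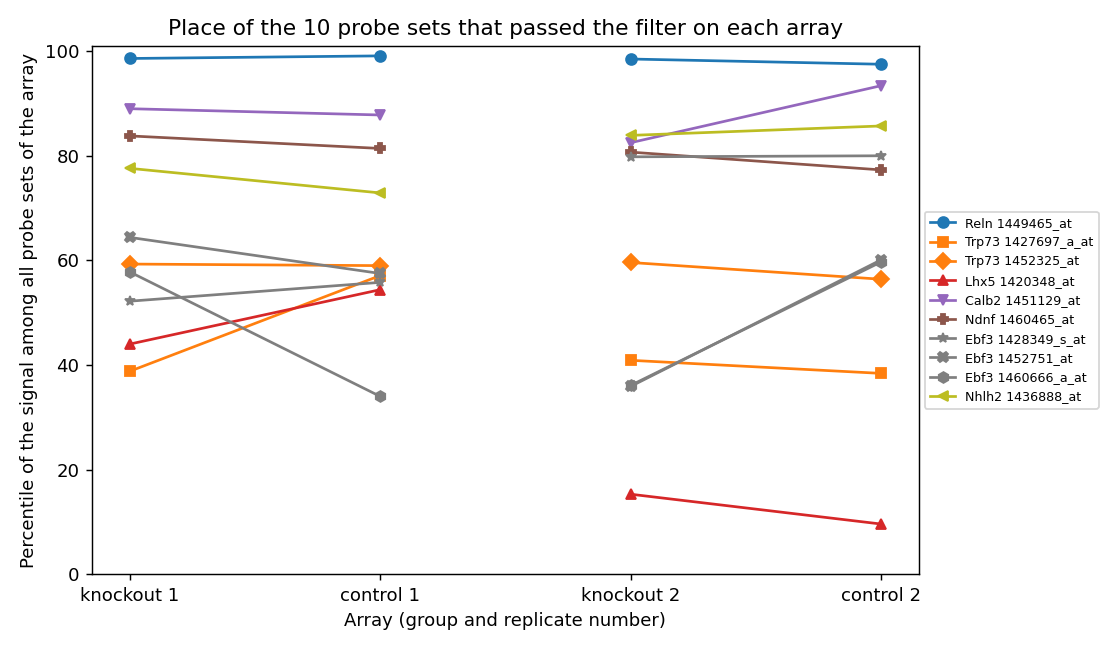
Percentile of the signal among all probe sets of its array (vertical axis) for the 10 probe sets that passed the filter, with knockout left of control and replicate 1 left of replicate 2 (horizontal axis); lines join the arrays of 1 replicate number. Reln stays between 97.5 and 99.1, while Calb2 and 2 Ebf3 probe sets lie below control in replicate 2 and above it in replicate 1.

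Calb2 encodes calretinin, a calcium-binding protein of Cajal-Retzius cells, of some interneurons and of thalamic and mossy cells. Its only probe set, 1451129_at, read 1484 in knockout and 1329 in control tissue of replicate 1, and 256 in knockout and 629 in control tissue of replicate 2. The knockout array of replicate 2 was the lowest of the 4, and the ratio of knockout to control was 1.12 and 0.407. On the log2 scale the differences were 0.16 and -1.20. Of the 27022 probe sets that passed the filter, 42 had a lower difference than Calb2 in replicate 2, and 18865 had a lower one in replicate 1. Calb2 lay at percentiles 89.0 and 82.5 in knockout and 87.8 and 93.4 in control tissue, so the replicate 2 arrays held both the lowest place, in knockout, and the highest, in control. In limma the group difference was -0.52 ± 1.62 as designed and -0.52 ± 0.30 with the replicate block (log2, SE, n = 2 per group), with an adjusted p of 1 and 0.9999.

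Genes of GABAergic interneurons, which include calretinin cells, were also lower in the knockout array of replicate 2. Of 14 measured interneuron genes, 12 were higher in knockout in replicate 1 and lower in replicate 2, against 26.1% of 12576 genes, and 0 were the reverse. Their summed signal was 20402 in knockout and 14313 in control tissue of replicate 1, and 3398 in knockout and 6594 in control tissue of replicate 2, with median differences of log2 0.35 and -0.75. Cck, a neuropeptide gene, was at 0.97 and -1.44, Npy, the neuropeptide Y gene, at 0.999 and -1.21, and Sp8, a transcription factor gene of interneuron lineages, at 1.45 and -0.96. The 2 genes lower in both replicates were Dlx2, at -0.18 and -0.59, and Dlx6, at -1.19 and -0.26. Reln, made by some interneurons as well, was lower then higher in knockout, the reverse of the 12. The part of interneurons in the differences of Calb2 and Reln was not tested.

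Ndnf encodes a secreted neuron-derived neurotrophic factor found in Cajal-Retzius cells and, later, in layer 1 interneurons. Ndnf at 1460465_at read 976 in knockout and 823 in control tissue of replicate 1, and 231 in knockout and 190 in control tissue of replicate 2. The knockout array was higher both times by nearly the same factor, 1.19 and 1.21, or log2 0.24 and 0.24. The difference was 0.24 ± 0.17 with the replicate block and 0.24 ± 1.41 as designed (log2, limma, SE, n = 2 per group), and the unadjusted p of the blocked fit was 0.200. Of all probe sets on the array, 24.2% were likewise higher in knockout in both replicates. The dim probe set 1453225_at of Ndnf, which failed the filter, read 30.0 in knockout and 31.1 in control tissue of replicate 1, and 42.3 in knockout and 35.1 in control tissue of replicate 2. It stood at log2 -0.03, which turned to 0.06 with quantile normalization, and 0.15.

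**Figure D3:**
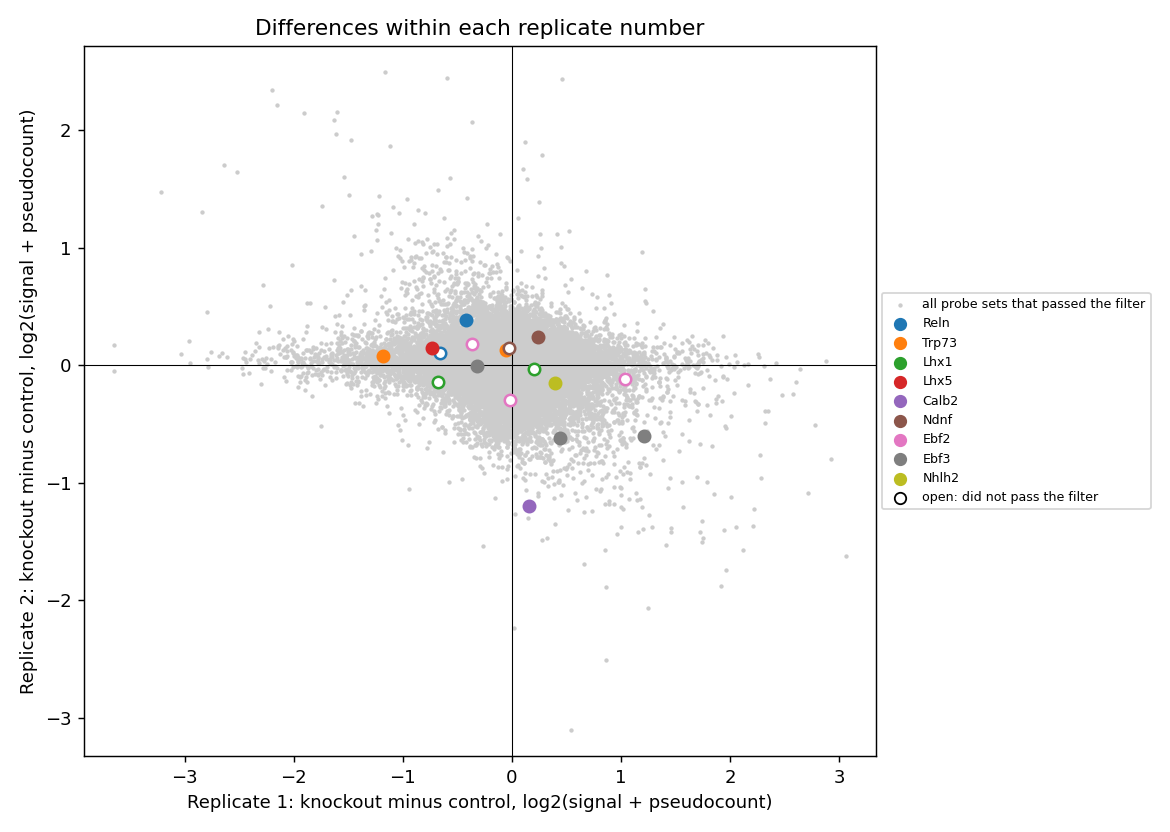
Knockout minus control on the log2(signal + pseudocount) scale in replicate 1 (horizontal axis) and replicate 2 (vertical axis), with grey points for the 27022 probe sets that passed the filter, coloured points for members and open points for members that did not pass. Calb2 lies low at 0.16 and -1.20, Reln lies at -0.43 and 0.39, and Ndnf at 1460465_at is the member with both differences above 0.

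Over all 17 probe sets, 7 were lower in knockout in replicate 1 and higher in replicate 2, and 6 were the reverse. The corresponding shares of all probe sets were 32.1% and 20.9%. There was 1 that was higher in both replicates (24.2% of all) and 3 that were lower in both (22.7% of all). The median difference of the 17 was log2 -0.03 in replicate 1 and -0.0049 in replicate 2, against -0.05 and 0.02 over all 45037 probe sets. On this scale, those over 2-fold apart numbered 3 in replicate 1, at Trp73, Ebf2 and Ebf3, against 10.1% of all probe sets, and 1 in replicate 2, at Calb2, against 0.331%. The count of 3 fell to 0 with the pseudocount at the 40th percentile. Probe sets of 1 gene share their transcript, so these counts are not over independent items, and whether they differ from the rest of the array was not tested.

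In limma's test across the 27022 probe sets that passed the filter, 10 of the 17 member probe sets, from 7 genes, were tested and 0 were called at an adjusted p of 0.05. Over all probe sets 0 were called (0% of those tested), with 6 at an unadjusted p under 0.05, none of them a member. With the replicate number as a block 0 were called again (0%), with 346 at an unadjusted p under 0.05 and 0 of these a member. The smallest unadjusted p of a member was 0.455 as designed, at Trp73, and 0.128 with the block, at Calb2. With 2 arrays per group, an exact two-sided permutation test of a single probe set cannot go below p = 0.333. The gap in scale between the replicates enters the error of the fit as designed, and 2 residual degrees of freedom without the block and 1 with it limit both fits, so the counts of 0 do not show that the members were unchanged. On simulated arrays with such a gap, the fit as designed called 0% of the probe sets changed by log2 2, and the blocked fit 100%. The simulated noise was of equal size for all probe sets of a replicate number. The 100% therefore does not show what the blocked fit would call on the real arrays.

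The reelin signalling pathway was read out through receptors, adaptors, kinases and downstream partners. Its 16 genes had 57 probe sets, of which 48 passed the filter, with at least 1 for each gene, and 0 of these 48 passed limma's test in either direction. Over 2-fold apart were 3 of the 57 in replicate 1 (10.1% of all probe sets), at Itga3, Crk and Cdk5 and all among those that failed the filter, and 0 in replicate 2 (0.331% of all). The receptor genes gave log2 0.14 and 0.07 for Vldlr and 0.35 and -0.18 for Lrp8. The adaptor gene Dab1, whose protein is phosphorylated when reelin binds, had a signal of 1994 in knockout and 2102 in control tissue of replicate 1, and 576 in knockout and 408 in control tissue of replicate 2, or log2 -0.07 and 0.47. Src, which encodes a kinase that acts on Dab1, was at 0.39 and -0.06, and its relative Fyn, which does so too, at 0.22 and -0.15. Vldlr and Fyn were named for their role, and Itga3, Crk and Cdk5 for their gap, after their values were seen. By gene, 4 were higher in both replicates (22.3% of all genes), 2 lower in both (24.1%), 6 higher then lower (26.1%) and 4 lower then higher (27.5%). The medians of the list were 0.11 and 0.01, against -0.01 and -0.00087 over all genes, and the second turned to -0.0023 when arrays were centred on the 75th percentile.

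Chemokine signalling holds Cajal-Retzius cells at the surface of the cortex, since the meninges secrete Cxcl12 and the cells carry its receptor Cxcr4. Cxcl12 read 1538 in knockout and 1169 in control tissue of replicate 1, and 470 in knockout and 652 in control tissue of replicate 2. Cxcr4 read 884 in knockout and 827 in control tissue of replicate 1, and 313 in knockout and 427 in control tissue of replicate 2. The second receptor, Ackr3, read 506 in knockout and 593 in control tissue of replicate 1, and 123 in knockout and 164 in control tissue of replicate 2. All 3 were lower in knockout in replicate 2, by log2 -0.44, -0.41 and -0.34, and differed in direction in replicate 1, at 0.39, 0.09 and -0.21. None passed limma's test (adjusted p of 1).

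Further genes of the hem and of Cajal-Retzius cells were as divided. Of 12 such genes, 7 were measured, with medians of log2 -0.04 in both replicates (0.0015 with quantile normalization in replicate 1). Cacna2d2, a calcium channel subunit gene, was at 1.96 and -0.53, on a signal of 241 in knockout and 37.5 in control tissue of replicate 1. Zic1, a zinc finger factor of the hem and septum, was at 0.02 and -2.24, with 331 in knockout and 1687 in control tissue of replicate 2. Rspo3, a Wnt agonist gene expressed in the hem, was at -0.57 and 0.74, the signs of Reln. The 12 measured genes listed for the meninges, which lie against these cells, had medians of -0.18 and -0.15. Their summed signal was 21295 in knockout and 17949 in control tissue of replicate 1, and 3987 in knockout and 6354 in control tissue of replicate 2. Crym had the highest signal of the list on every array, and whether that signal came from the meninges was not tested. Crym set the direction of both sums: without it, a choice made after seeing the data, the other 11 genes summed to 10403 in knockout and 12508 in control tissue of replicate 1, and to 1761 in knockout and 1529 in control tissue of replicate 2. The direction of these sums rested on 1 gene as well, Dcn. It read 1063 in knockout and 3639 in control tissue of replicate 1, and 869 in knockout and 320 in control tissue of replicate 2. The medians of the 11 genes were log2 -0.23 and -0.11. Among the list Dcn was at -1.74 and 1.36, Slc6a13 at -1.47 and -0.20, and Crym at 0.997 and -1.10. The part of the meninges in the values of the members was not tested.

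**Figure D4:**
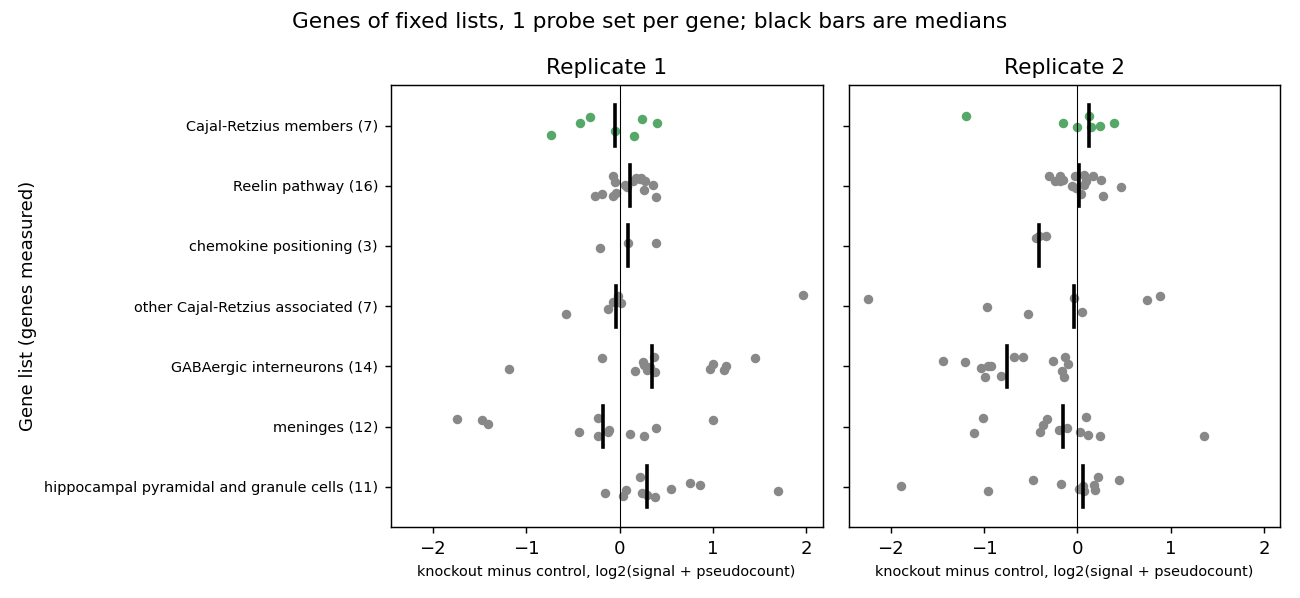
Knockout minus control on the log2(signal + pseudocount) scale (horizontal axis) for the genes of 7 lists (rows, with the number of genes measured), replicate 1 on the left and replicate 2 on the right; each point is 1 gene by its brightest probe set and each black bar a median. The reelin pathway sits close to zero in both panels, while interneuron genes have medians of 0.35 and -0.75.

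The genes whose pair of differences lay nearest to those of Reln were Tes3-ps, Dact1 and Top2a, at Euclidean distances of 0.014, 0.015 and 0.015 on the log2 scale among 12569 genes. Of these genes, 462 lay within 0.25 of Reln. Nearest to Calb2 were Foxp2, Ifitm2 and Apoe, at 0.12, 0.13 and 0.14, and 7 genes lay within 0.25. A radius of fixed size holds fewer genes far from zero, where Calb2 lay, so these counts do not compare how common the 2 patterns were. By sign alone, 27.5% of 12576 genes were lower then higher in knockout, as Reln was. The share that was higher then lower, as Calb2 was, came to 26.1%. Likeness to the nearest genes rests on 2 values per gene.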

How the data were processed

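Total RNA was hybridised to 4 Affymetrix arrays, 2 knockout and 2 control. The authors deposited MAS5 signal intensities on a linear scale, per the submitters' processing notes; the version, scaling target and detection calls are not given in the sources used here. The number of arrays limits the precision. The platform annotation gave gene symbols: 34945 of 45037 had 1 symbol, 932 several and 9160 none.

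Signals were taken as log2(signal + 32.56), the pseudocount being the 20th percentile of all values. Probe sets with a mean signal above the 40th percentile (71.8) were tested, 27022 in all. Groups were compared with limma 3.58.1 (R 4.3.3, lmFit, eBayes with trend, no covariate) with Benjamini-Hochberg adjustment at 0.05. Simulated arrays kept the scale gap between replicate numbers, with 100 probe sets changed at each fold size and noise of equal size for all probe sets of a replicate number. The fit as designed recovered 0% of probe sets changed by log2 1 and 0% of those changed by log2 2. The blocked fit recovered 95% and 100%, with 9 false calls among 27022 probe sets. Noise on the real arrays need not be equal across probe sets, so these shares do not give the recovery of either fit there. The replicate number as a block was an alternative. It coincides with the scale of the values, so differences are also given within each number.

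For lists, a gene was represented by its tested probe set with the highest mean signal. All member probe sets are named, and of each other list the 3 genes with the largest summed absolute differences. Vldlr, Fyn, Itga3, Crk, Cdk5, Alb, Dlx2 and Dlx6 were added after their values were seen. Lists of the reelin pathway, chemokine positioning, other Cajal-Retzius genes, paralogs, interneurons, meninges, hippocampal neurons, diencephalon and liver were used. Members and lists were chosen with earlier results of these data known. Alternatives covered normalization, pseudocount, filter, probe set choice, variance model, block and leaving out each array.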

Additional observations from a re-analysis of the deposited data

How the results depend on the processing

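The count of called probe sets was 0 for all probe sets, for members and for the reelin pathway in each of 16 alternatives to the fit as designed, of which 1, a filter on the mean log2 signal, was chosen after seeing the data. With the replicate block limma called 0 probe sets. The labels do not say that the numbers pair the samples; the correlation, across probe sets, of how arrays with the same number departed from the mean of their group was 0.834. Quantile normalization turned the group difference of Reln at 1449465_at to log2 0.086 and that of Ebf3 at 1460666_a_at to -0.016. When 1 array was left out, the remaining arrays were on unequal scales, and the group difference ranged from -1.56 to 1.52 for Reln at 1449465_at, from -1.72 to 0.68 for Calb2, from -1.27 to 0.16 for Trp73 at 1427697_a_at and from -0.51 to 0.58 at 1452325_at, from -1.23 to 0.64 for Lhx5, from -0.73 to 1.21 for Ndnf, and from -0.44 to 0.69 for Nhlh2. For Ebf3 it ranged from -0.41 to 0.085 at 1428349_s_at, from -1.05 to 0.88 at 1452751_at and from -0.41 to 1.01 at 1460666_a_at. The smallest adjusted p of any probe set was 0.9987 over these fits, without control replicate 2. The 4 differences over 2-fold within a replicate number kept their sign under the 5 scaling and pseudocount alternatives, but their number did not hold. In replicate 1 there were 3 as designed, 0 with the pseudocount at the 40th percentile, 1 with trimmed-mean scaling or quantile normalization and 5 with a floor of 1, and in replicate 2 there was 1, or 3 with quantile normalization. Ebf2 at 1418494_at ranged widest in replicate 1, from 0.67 with the higher pseudocount to 2.60 with a floor of 1. In replicate 2 quantile normalization gave -1.12 for Ebf3 at 1452751_at and -1.08 at 1460666_a_at. Member probe sets near or below the array median are limited by signal over background. From 7 to 9 of the 17 lay below the median of an array. All probe sets of Lhx1 and Ebf2 are so limited, as are the dim probe sets of Reln and Ndnf. Lhx5 and Trp73 at 1427697_a_at lay below the median on every array but the replicate 1 control. Ebf3 at 1452751_at and 1460666_a_at lay below it on the knockout array of replicate 2, and 1460666_a_at also on the replicate 1 control.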

Other observations

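Paralogs of the members gave values in both directions. Of 12 paralogs, 7 were measured, with medians of log2 -0.03 in replicate 1 (0.06 with quantile normalization) and -0.0093 in replicate 2. Lhx9, a LIM homeodomain gene of the diencephalon and medial pallium, was at 0.68 and -0.71, with 905 in knockout and 555 in control tissue of replicate 1 and 91.7 in knockout and 170 in control tissue of replicate 2. Calb1, which encodes the calcium-binding protein calbindin, was at -0.64 and 0.26, and Lhx2, a LIM homeodomain selector of cortical identity, at -0.25 and 0.15. Calb1 and Calb2 thus had opposite signs in both replicates.

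Of 9 genes of the thalamus and other diencephalon, a list that also holds Calb2 and Lhx9, 8 were measured, with medians of 0.05 and -0.12. Tcf7l2, a Wnt effector of thalamic neurons, was at -0.18 and -0.57. The 11 measured hippocampal pyramidal and granule cell genes had medians of 0.30 and 0.06. Of these, 7 were higher in knockout in both replicates, against 22.3% of 12576 genes, 1 was lower in both and 3 were higher then lower. Whether this list differs from the other genes was not tested. Nectin3, an adhesion molecule gene, was at 1.70 and -0.96, Pcp4, a calmodulin regulator gene, at 0.86 and -1.89, and Amigo2, an adhesion molecule gene of field CA2, at 0.76 and 0.01. Among the liver genes Apoa1 was at -2.33 and 0.05, Ambp at -2.28 and -0.02, and Fgb at -2.09 and -0.10.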
